A study of Mus musculus with 14 samples.

Results

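Genes whose midpoint lies over 80 and up to 90 Mb on chromosome 8 were examined in the hippocampus of mice labelled as knockouts of the lysophosphatidic acid receptor LPAR2 and of wild-type mice. The window holds 125 rows of the deposited count table. Junb, Calr, Dnajb1 and Cacna1a were left out by name, and 34 rows, 15 of them with a Mir symbol, had 10 or more counts in fewer than 7 mice. This left 87 members of the 24421 genes in the table, all of which were among the 14897 genes that edgeR's low-count filter kept for testing. Of the members, 81 had 10 or more counts in all 14 mice and 6 in fewer. Position, the count minimum and the 4 excluded names are what the members were selected on. The window was chosen with results of the comparison described here already known, and Scoc and Mylk3 were named in advance for their decrease, so that neither the number of members that differed nor the size of these 2 decreases supports anything about the window.

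RNA was sequenced from the hippocampi of 7 mice labelled LPAR2-/- and 7 wild-type (WT) mice, all naive males of the strain 129.C57Bl6, with 1 library per mouse. According to the methods of the study, the knockout lacks part of exon 2 of Lpar2, and both genotypes came from colonies of their own, so that genotype and colony cannot be told apart. For the control colony the methods give a mixed background of C57BL/6 and 129/SvJ. On the labels the mice are 10 to 12 weeks old, but the deposited description calls them middle-aged to aged, so their age is uncertain. The results of the study name the dentate gyrus and its methods the hippocampus.

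Members of the window are neighbours on a chromosome and not parts of 1 pathway. They include Scoc, a short coiled-coil protein of the Golgi that takes part in autophagy, the clearance of cell contents in lysosomes, and Mylk3, the myosin light chain kinase of heart muscle. Among the others are the catalytic subunit of protein kinase A (Prkaca), the adhesion receptor latrophilin 1 (Adgrl1), the retromer subunit Vps35, which returns cargo from endosomes, and the alanine aminotransferase of mitochondria (Gpt2). Lpar2 itself lies on the same chromosome, before the window.

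The total count per mouse ranged from 15434620 to 23258949, and the members took from 0.493% to 0.518% of it. Counts of Lpar2 (chr8:69822565-69831102) went against the labels: mice labelled LPAR2-/- had from 144 to 234 and WT mice from 27 to 66, with a log2 fold change of 2.01 (SE 0.157, edgeR adjusted p = 8.2e-07). This count spans the whole gene, so that reads on the deleted part were not seen separately, and every direction given here rests on the labels. Markers of hippocampal neurons were present in every library, with between 1286 and 1818 CPM (counts scaled to 1000000 per mouse) of Slc17a7 and between 33.5 and 55.1 CPM of Prox1, and Gabra6 of cerebellar granule cells had 0 counts in all, which allows up to 3 counts per mouse (counting error only). None of the 16 lists of cell types with a tested marker passed an adjusted p of 0.05 (exact two-sided permutation tests). The lowest p was that of striatal markers, whose sum lay between 57.3 and 67.3 CPM in WT mice and between 64.9 and 76.9 CPM in mice labelled LPAR2-/- (5 markers, difference 0.18 on the log2 scale, permutation p = 0.0122, adjusted 0.196). The summed markers of the choroid plexus lay between 28.1 and 33.1 CPM in WT mice and between 25.4 and 285 CPM in mice labelled LPAR2-/- (5 markers, 3 tested, difference 1.03 on the log2 scale, p = 0.0297 and adjusted p = 0.238 by the permutation test), and those of the meninges between 51.7 and 263 and between 69.6 and 348 CPM (6 markers, difference 0.81, permutation p = 0.0548, adjusted 0.292). For pericytes and smooth muscle the sums were 75.7 to 206 and 105 to 247 CPM (5 markers, difference 0.59, permutation p = 0.0816, adjusted 0.326). Their part in the values of the members was not tested. Fewer cells of a type and less RNA per cell cannot be told apart in such tissue RNA.

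By edgeR's quasi-likelihood test with Benjamini-Hochberg adjustment over all genes tested, 10 members were higher and 11 lower in mice labelled LPAR2-/- at an adjusted p under 0.05. These 21 members were 24.1% of 87, beside 6.77% of all 14897 genes. Higher members made up 11.5% beside 3.32% of all genes, and lower members 12.6% beside 3.46%. Since the window was picked with this comparison in view, nothing is read from these shares. The median log2 fold change of the members was -0.0058, beside 0.0029 over all genes, and the median of its absolute value was 0.125 beside 0.0871. Scoc and Mylk3 were the only members that differed by more than 1 on the log2 scale. Of the 21 called members, 15 differed by no more than 0.5. Called members were found on both strands, with 10 on the plus and 11 on the minus strand.

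**Figure D1:**
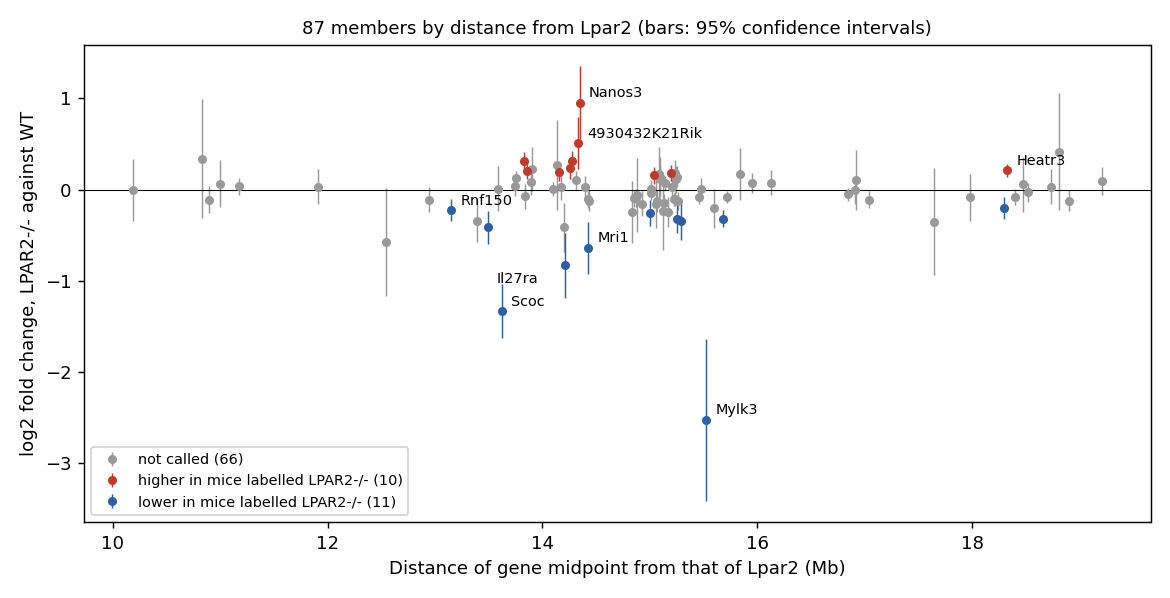
Log2 fold change (mice labelled LPAR2-/- against WT) of the 87 members on the vertical axis against the distance of the gene's midpoint from that of Lpar2 in Mb, with 95% confidence intervals. Red points passed the test as higher (10), blue points as lower (11) and grey points did not pass (66). Scoc and Mylk3 lie far below the other members.

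Scoc fell from 47.9 ± 2.43 CPM (SD, n = 7) in WT mice to 18.9 ± 5.99 CPM (SD, n = 7) in mice labelled LPAR2-/-. The lowest, median and highest WT mouse had 44.6, 48.2 and 51.0 CPM, and the corresponding mice labelled LPAR2-/- had 15.7, 16 and 32.1 CPM. Hence the groups did not overlap, and 6 of the 7 mice labelled LPAR2-/- lay between 15.7 and 19.4 CPM with mouse 2 well above them. The log2 fold change was -1.34 (SE 0.138, adjusted p = 6.75e-05), a decrease by 60.4%. The counts behind these values ran from 729 to 1064 per WT mouse and from 245 to 627 per mouse labelled LPAR2-/-.

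Mylk3 was scarce in WT hippocampus, with 1.75 CPM per kb of counted exon beside 23.0 for Scoc. WT mice had 3.71, 5.69 and 7.28 CPM (lowest, median and highest) and mice labelled LPAR2-/- had 0.263, 0.597 and 3.53 CPM. Again no value was shared between the groups, and again mouse 2 was the highest of the mice labelled LPAR2-/-, next to the lowest WT mouse, with the other 6 at or under 0.821 CPM. The log2 fold change was -2.53 (SE 0.417, adjusted p = 0.00296), on 76 to 154 counts per WT mouse and 5 to 69 per mouse labelled LPAR2-/-. With 10 or more counts in 7 WT mice and in 5 labelled LPAR2-/-, Mylk3 met the minimum of 7 mice by its WT values.

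The 250 bases before the RefSeq starts of these 2 genes are shown because both genes fell by more than 1 on the log2 scale. They are given 5′ to 3′ on the minus strand, on which both genes lie, from GRCm38.p6, the assembly that mm10 also denotes. The windows of Scoc, which has 2 annotated starts, are chr8:83458397-83458646 (outer) and chr8:83442663-83442912 (inner), and that of the outer Mylk3 start is chr8:85381042-85381291. The window before an inner Mylk3 start, chr8:85365325-85365574, has 23 bases in annotated exons and is not printed. Capitals mark CCAAT or its reverse complement ATTGG, and AGATAA.
Scoc outer start: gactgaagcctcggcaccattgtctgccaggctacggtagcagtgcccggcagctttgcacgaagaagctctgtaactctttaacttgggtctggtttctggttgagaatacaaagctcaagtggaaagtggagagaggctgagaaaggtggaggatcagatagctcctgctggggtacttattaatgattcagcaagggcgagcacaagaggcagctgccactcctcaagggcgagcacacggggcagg
Scoc inner start: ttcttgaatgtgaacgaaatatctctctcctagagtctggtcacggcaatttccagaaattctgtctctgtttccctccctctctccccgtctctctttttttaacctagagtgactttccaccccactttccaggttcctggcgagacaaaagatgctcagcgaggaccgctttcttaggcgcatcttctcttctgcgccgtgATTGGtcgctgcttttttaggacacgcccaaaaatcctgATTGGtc
Mylk3 outer start: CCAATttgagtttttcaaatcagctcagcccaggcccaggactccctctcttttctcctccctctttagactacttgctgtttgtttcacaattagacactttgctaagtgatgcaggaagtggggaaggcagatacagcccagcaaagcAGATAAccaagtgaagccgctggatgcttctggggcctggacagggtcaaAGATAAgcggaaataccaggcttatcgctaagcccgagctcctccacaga
CCAAT on either strand occurred 2 times before the inner Scoc start and 1 time before the outer start of Mylk3, and in 33.8% of all 32851 RefSeq windows of this length. AGATAA on either strand, the core bound by GATA factors, occurred 2 times in the outer Mylk3 window and in 9.99% of all windows. TATAA was searched on both strands as well and was in none of these windows, beside 22.8% of all. The inner Mylk3 window held 0 matches to each of the 3 motifs and 2 CG dinucleotides. The 3 windows printed held 7, 11 and 4 CG dinucleotides in the order shown. The median was 6 over all windows and 14 over the 82 windows of members. Such matches describe the letters only.

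**Figure D2:**
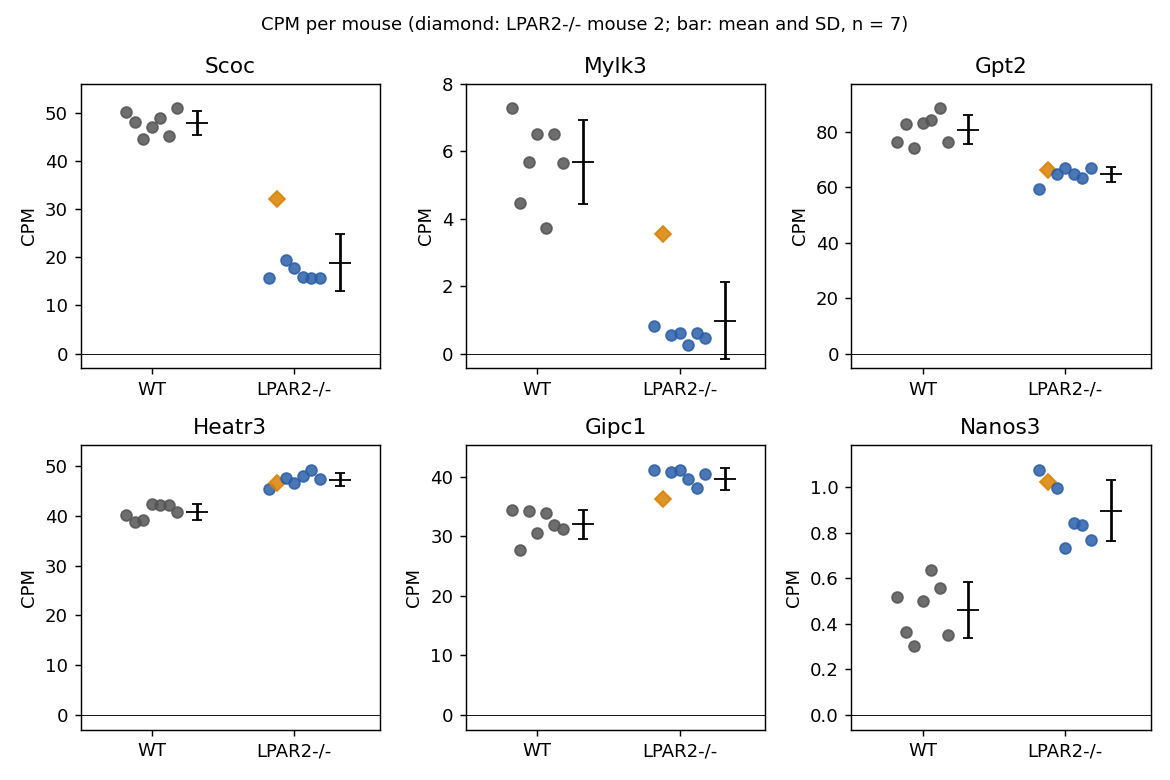
CPM of 6 called members whose groups did not overlap (Scoc, Mylk3, Gpt2, Heatr3, Gipc1, Nanos3), 1 point per mouse, with the mean and SD of each group beside the points (n = 7). The diamond is LPAR2-/- mouse 2, which lies between the groups for Scoc, Mylk3 and Gipc1 and among the other mice labelled LPAR2-/- for Gpt2, Heatr3 and Nanos3.

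Among kinases and signalling proteins, 3 of 17 members rose and 5 fell, with a median log2 fold change of 0.03. For this and the other role groups, the shares over all genes were 3.32% higher and 3.46% lower, and nothing is read from the counts of a group. Gipc1, a PDZ scaffold that binds the tails of receptors, had 27.8, 31.9 and 34.5 CPM in WT mice and 36.2, 40.6 and 41.2 CPM in mice labelled LPAR2-/- (lowest, median, highest). All 7 mice labelled LPAR2-/- were above all WT mice, with a log2 fold change of 0.31 (SE 0.0506, adjusted p = 0.00224). Prkaca, the most abundant member of this group per length (83.5 CPM per kb in WT mice), rose from 209 ± 14.8 to 239 ± 12.9 CPM (SD, n = 7 each), which is 0.19 on the log2 scale (adjusted p = 0.0257). For Prkaca the groups overlapped, with 3 of 7 mice labelled LPAR2-/- inside the WT range, and the call was lost in 6 of 14 fits with 1 mouse removed (adjusted p up to 0.0612).

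Besides Mylk3, the members of this group that fell were Il27ra, Elmod2, Dand5 and Cnep1r1. Il27ra, a subunit of the interleukin-27 receptor, had 5.03, 6.62 and 9.74 CPM in WT mice and 2.60, 3.74 and 5.63 CPM in mice labelled LPAR2-/-, and mouse 2 was the only one of the latter inside the WT range. Its log2 fold change was -0.83 (SE 0.169, adjusted p = 0.00847). Elmod2, which stimulates GTP hydrolysis by Arf-like proteins, fell by 0.42 (adjusted p = 0.0110), from between 19 and 26.8 CPM to between 14.4 and 21 CPM. Here mouse 3, not mouse 2, was the highest of the mice labelled LPAR2-/- and the only one inside the WT range. Dand5, a secreted antagonist of Nodal, fell by 0.25 on the log2 scale (adjusted p = 0.0345) and Cnep1r1, a subunit of the phosphatase that acts on lipin, fell by 0.20 (adjusted p = 0.0455). Both lost their call in most fits that left out 1 mouse, as given further on.

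Of 16 members with roles in transcription and chromatin, Rfx1 and Nanos3 rose, Zfp791 fell and 13 did not pass, among them Nfix, the most abundant per length (56.9 CPM per kb in WT mice, log2 fold change -0.16, adjusted p = 0.159). Rfx1, a transcription factor that binds X-box sequences, had 35.8, 39.0 and 41.8 CPM in WT mice and 40.6, 45.8 and 51.6 CPM in mice labelled LPAR2-/-, a rise by 0.23 on the log2 scale (adjusted p = 0.0229). Nanos3, an RNA-binding protein known from germ cells, was near the limit of detection. Its counts ran from 6 to 13 in WT mice and from 12 to 23 in mice labelled LPAR2-/-, or 0.462 ± 0.123 and 0.897 ± 0.135 CPM (SD, n = 7 each), without overlap in CPM (log2 fold change 0.95, SE 0.190, adjusted p = 0.00781). Nanos3 reached 10 counts in 10 mice, of which 7 were labelled LPAR2-/- and 3 were WT. It was thus a member only through the group in which it is higher, a selection that favours this direction, and its difference supports nothing further. Zfp791, a zinc finger protein, had 4.96, 5.50 and 5.94 CPM in WT mice and 3.18, 4.42 and 4.93 CPM in mice labelled LPAR2-/-, which just did not overlap (log2 fold change -0.35, adjusted p = 0.0448). This call was lost in 11 of the 14 fits with 1 mouse left out (adjusted p up to 0.0905), with upper quartile scaling (0.0577) and without a filter on low counts (0.0605).

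Within the 13 members for protein folding and ubiquitin, Dcaf15 and Asna1 rose and Rnf150 and Wdr83os fell. Dcaf15, which brings substrates to a CUL4 ubiquitin ligase, had 34.4, 36.8 and 39.9 CPM in WT mice and 39.0, 47.2 and 51.1 CPM in mice labelled LPAR2-/-. Mouse 3 was the lowest of the latter and the only one inside the WT range (log2 fold change 0.31, SE 0.0544, adjusted p = 0.00310). Asna1, the ATPase that delivers tail-anchored proteins to the endoplasmic reticulum, rose by 0.18 (adjusted p = 0.0156). Rnf150, a RING finger protein, fell by 0.23 on the log2 scale (adjusted p = 0.0256, not called in 3 of the 14 fits with 1 mouse left out). Wdr83os, a small protein of the endoplasmic reticulum, had 20.9, 22.7 and 24.7 CPM in WT mice and 16.8, 17.5 and 23.9 CPM in mice labelled LPAR2-/- (log2 fold change -0.33, SE 0.0729, adjusted p = 0.0151). Of the latter, 6 were below all WT mice, whereas mouse 2 was above the WT mean. Dnaja2, the DnaJ co-chaperone and the most abundant of these members per length (89.2 CPM per kb), differed by -0.08 on the log2 scale (adjusted p = 0.142).

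In the metabolic group of 7 members, Gpt2 and Mri1 fell and none rose. Gpt2 had 74.3, 82.7 and 88.5 CPM in WT mice and 59.2, 64.8 and 67.1 CPM in mice labelled LPAR2-/-, again without overlap. With a log2 fold change of -0.32 (SE 0.0440, adjusted p = 4.95e-04) Gpt2 had the second smallest adjusted p among the members after Scoc. Mri1, an isomerase of the methionine salvage pathway, fell from 16 ± 1.02 to 10.2 ± 2.77 CPM (SD, n = 7 each), a log2 fold change of -0.64 (SE 0.136, adjusted p = 0.0123). Mouse 2 had 15.2 CPM of Mri1, inside the WT range, and mouse 7 had the lowest value with 5.70 CPM. Tecr, which completes the elongation of very long chain fatty acids and was the most abundant member per length (186 CPM per kb), differed by 0.12 on the log2 scale (adjusted p = 0.0769).

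Of 10 members for RNA, tRNA and protein synthesis, Heatr3 and Farsa rose and none fell. Heatr3, which escorts a ribosomal protein into the nucleus, had 38.6, 40.7 and 42.4 CPM in WT mice and 45.3, 47.3 and 49.3 CPM in mice labelled LPAR2-/-. Its difference was small but the spread within the groups was smaller still, so that all 7 mice labelled LPAR2-/- were above every WT mouse (log2 fold change 0.21, SE 0.0340, adjusted p = 0.00184). Farsa, a subunit of the synthetase that charges phenylalanine tRNA, rose by 0.15 (adjusted p = 0.0374), a call that was lost in 10 of the 14 fits with 1 mouse left out (adjusted p up to 0.0790). Trmt1, a tRNA methyltransferase and the most abundant of this group per length (36.8 CPM per kb), differed by -0.10 (log2 scale, adjusted p = 0.255).

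Scoc was the only one of 8 members for membrane traffic and cytoskeleton that passed the test. Vps35, the most abundant per length of this group (70.4 CPM per kb), had 223 ± 6.84 CPM in WT mice and 210 ± 8.50 CPM in mice labelled LPAR2-/- (SD, n = 7 each), or -0.08 on the log2 scale (adjusted p = 0.149). Tnpo2, a nuclear import receptor named after its values were seen, had 237, 243 and 247 CPM in WT mice and 211, 222 and 236 CPM in mice labelled LPAR2-/-, so that the groups did not overlap although its adjusted p was 0.0509 (log2 fold change -0.11).

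None of the 7 receptors, synaptic and surface proteins passed edgeR's test at an adjusted p under 0.05, with log2 fold changes between -0.35 and 0.34. Adgrl1, latrophilin 1, was the most abundant of them per length (89.8 CPM per kb) and had the smallest absolute log2 fold change among the 10 most abundant members. It had 736 ± 18 CPM in WT mice and 741 ± 34.6 CPM in mice labelled LPAR2-/- (SD, n = 7 each), a log2 fold change of 0.01 (95% confidence interval -0.07 to 0.09, adjusted p = 0.900). Of 9 members on none of the role lists, 4930432K21Rik rose, with 1.86, 2.32 and 2.92 CPM in WT mice and 2.66, 3.23 and 4.00 CPM in mice labelled LPAR2-/- (log2 fold change 0.51, adjusted p = 0.0333, not called in 6 of the 14 fits with 1 mouse left out). The most abundant of them per length was D8Ertd738e (56.5 CPM per kb, log2 fold change -0.11, adjusted p = 0.164).

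**Figure D3:**
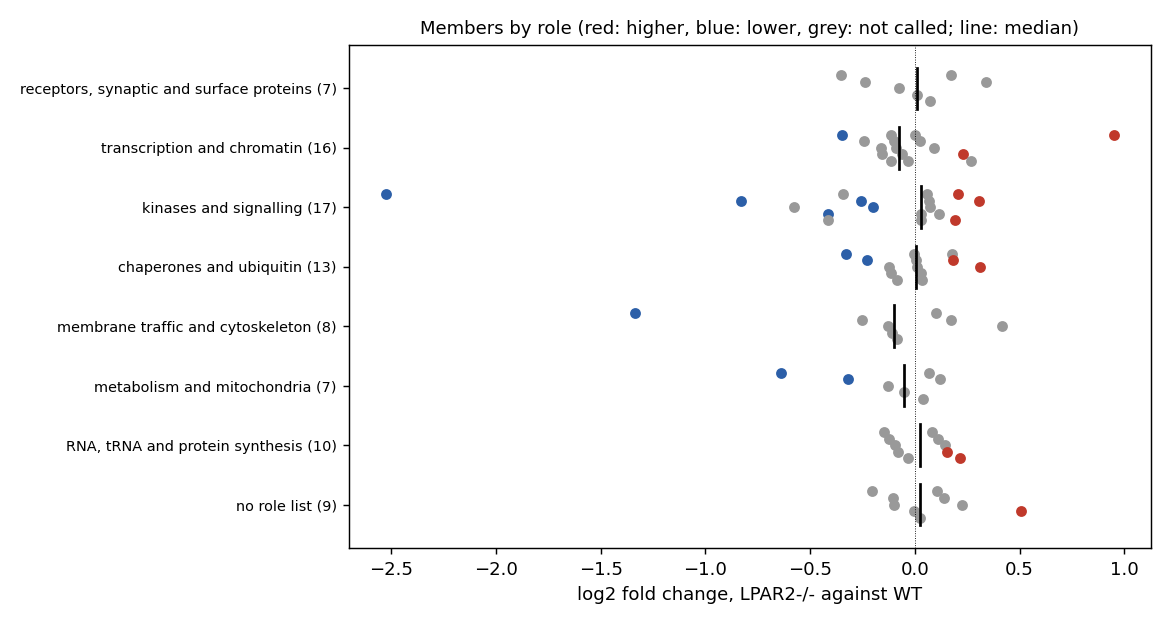
Log2 fold change of every member (horizontal axis) by role group, with the number of members in brackets. Red and blue points passed the test as higher and lower, grey points did not, and the black line is the group's median. Each group's median lies between -0.10 and 0.03, and the 2 points farthest left are Mylk3 and Scoc.

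For 8 of the 87 members (9.20%) no value was shared between the group ranges, beside 1.77% of all genes tested. Higher in all mice labelled LPAR2-/- were Gipc1, Heatr3 and Nanos3, the last of which met the count minimum by these mice alone. Lower in all of them were Scoc, Mylk3, Gpt2, Zfp791 and Tnpo2. At an unadjusted p under 0.05 there were 40 of the 87 members, beside 22.4% of all genes tested.

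None of the first 8 members and none of the last 7 passed the test, and the 21 called lay from Rnf150 (chr8:82863356-83091271) to Heatr3 (chr8:88137885-88171943). Members were densest from 83 to 86 Mb, and the calls lay largely where the members did: this stretch held 63 members (72.4%) and 18 of the called ones (85.7%), 9 higher and 9 lower. Neighbouring members could differ in direction, as Il27ra (lower) was followed by Rfx1 (higher) and Cnep1r1 (lower) by Heatr3 (higher). Over whole windows of 10 Mb, with the genes left out by name counted in, 25.3% of 91 tested genes were called from 80 to 90 Mb, 27.7% of 112 from 70 to 80 Mb, 11.3% of 53 from 90 to 100 Mb and 0 of 88 from 100 to 110 Mb. Shares of like size were also found farther off, with 23.3% of 43 from 60 to 70 Mb, 25% of 32 from 30 to 40 Mb and 21.1% of 95 from 120 to 130 Mb, and the other windows of the chromosome had between 2.9% and 17.2%. These windows share the mice, and no test of their difference was made.

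Exons of 19 members share bases with a gene on the opposite strand, among them the called Il27ra, which shares 10 bases with Palm3. The authors counted reads by strand, which keeps such pairs apart. On the same strand only Adgre5 shared exon bases with another gene of the table, the microRNA gene Mir1668 (31 bases). By symbol 84 members matched GENCODE M21, of which 83 are protein-coding genes.

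LPAR2-/- mouse 2 stood apart at several called members. To describe this, each mouse labelled LPAR2-/- was placed between the WT mean (0%) and the mean of the other 6 mice labelled LPAR2-/- (100%). Mouse 2 lay at 50.7% for Scoc, 41.9% for Mylk3, 50.9% for Gipc1, 34.5% for Il27ra, 30.5% for Rfx1, 26.7% for 4930432K21Rik, 12.1% for Mri1 and -16.7% for Wdr83os. By contrast it lay at 136% for Nanos3, 145% for Prkaca, 105% for Dcaf15, 87.6% for Gpt2 and 88.7% for Heatr3. Members at which mouse 2 lay below 75% thus alternate along the chromosome with members at which it did not. Over the 21 called members its median was 52.7%, whereas the medians of the other 6 mice were between 96.7% and 117%. Mouse 2 was below 75% at 11 of them and mouse 3 at 8, and mouse 3 was the lower of these mice for Rnf150 (16.3%), Rfx1 (22.1%) and Dand5 (58.9%).

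How well a mouse is placed varied between members. The other 6 mice lay between 97.9% and 113% for Scoc, between 104% and 118% for Mylk3 and between 110% and 139% for Wdr83os, but between 52.0% and 182% for 4930432K21Rik and between 58.5% and 152% for Nanos3, where mouse 2 had 52 and 20 counts. Of the 6 called members that differed by more than 0.5, among them these last 2, mouse 2 was below 75% in 5 and each of the other mice in 0 to 2. Nearer to Lpar2, from 60 to 80 Mb, 21 called genes differed by more than 0.5, and there mouse 2 had a median of 92.4% and was below 75% in 1. From 20 to 60 Mb the called genes that differed by more than 0.5 had mouse 2 at 75.6% to 181%. Beyond the members it was below 75% at both such genes from 90 to 100 Mb (15.8% and 62.0%), at the only one from 110 to 120 Mb (54.4%) and at 4 of 5 from 120 to 130 Mb (median 60.1%), so that low values of mouse 2 were not particular to the members. Over the 230 such genes on other chromosomes its median was 94.0% and it was below 75% in 33.0%, while LPAR2-/- mouse 3 was so in 39.1%. In a tree over all genes tested, mouse 3 fell with the WT mice, and in a tree over the 87 members mouse 2 did so. Mouse 2 was picked out after its values were seen and was part of the comparison that called these genes, so no test was made, and the cause was not tested.

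**Figure D4:**
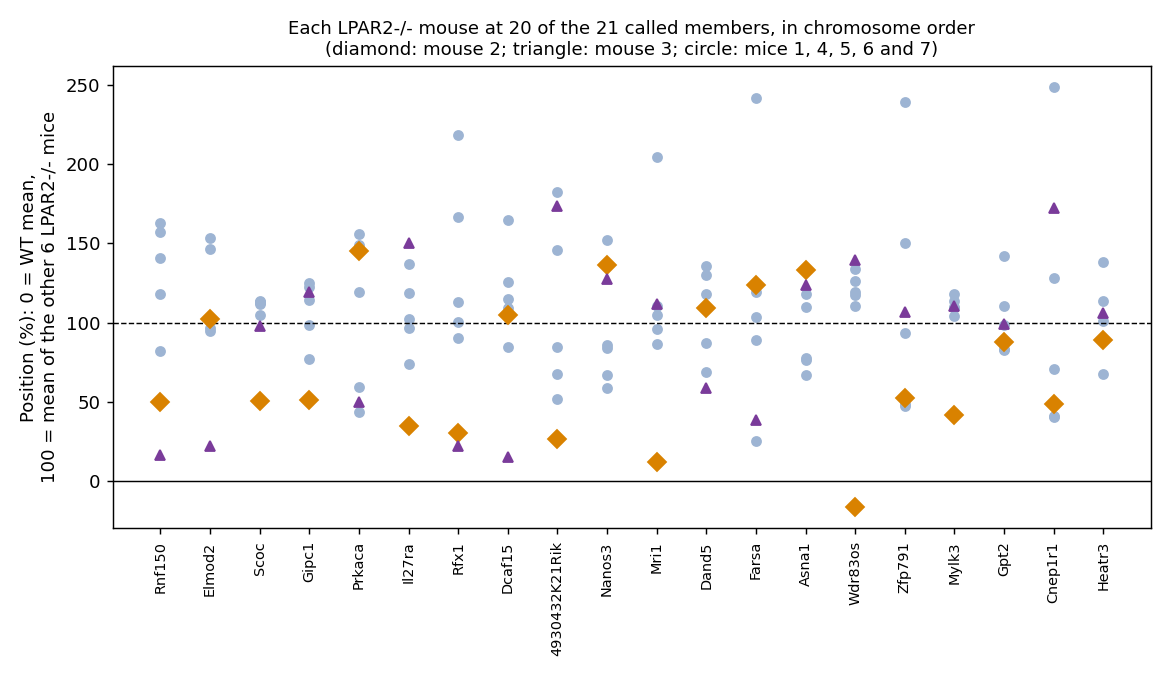
Position of each mouse labelled LPAR2-/- at 20 of the 21 called members, in chromosome order, in percent of the way from the WT mean (0) to the mean of the other 6 mice labelled LPAR2-/- (100). The diamond is mouse 2, at 50.7% for Scoc and 41.9% for Mylk3, and the triangle is mouse 3, which was lower than the other mice for Elmod2 and Dcaf15.

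Mouse 2 was picked for values near those of WT mice at several called members. Leaving it out therefore widens the differences there by construction, and nothing is read from the p-values and counts of this fit. Without mouse 2, the log2 fold change of Scoc was -1.51 (adjusted p = 4.76e-10) and that of Mylk3 -3.35 (adjusted p = 1.18e-07). Those of Il27ra, Mri1 and Wdr83os were -0.96, -0.76 and -0.40 (adjusted p = 0.00285, 0.00102 and 2.01e-04). Palm3, a paralemmin whose name was added after its values were seen, was then also called (-0.54, adjusted p = 0.00416, beside -0.41 and 0.0636 with all mice), as was Tnpo2 (-0.12, adjusted p = 0.0475). The number of members whose groups did not overlap rose from 8 to 14, beside 2.4% of all genes tested without this mouse. Prkaca, Dand5 and Farsa were no longer called, and 20 members (23%) were called in all, beside 5.16% of all genes in this fit.

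When each of the 14 mice was left out in turn, Scoc, Mylk3, Gpt2, Heatr3, Gipc1, Dcaf15, Nanos3, Il27ra, Elmod2, Mri1, Wdr83os, Asna1 and Rfx1 were called in all 14 fits. Dand5 and Zfp791 were called in 3 fits, Farsa and Cnep1r1 in 4, Prkaca and 4930432K21Rik in 8 and Rnf150 in 11. Without WT mouse 2, which gave the fewest calls, 7 members were called higher and 7 lower (16.1%), beside 3.79% of all genes in that fit. Rfx1 was not called with the mouse number as a block (adjusted p = 0.0740).

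**Figure D5:**
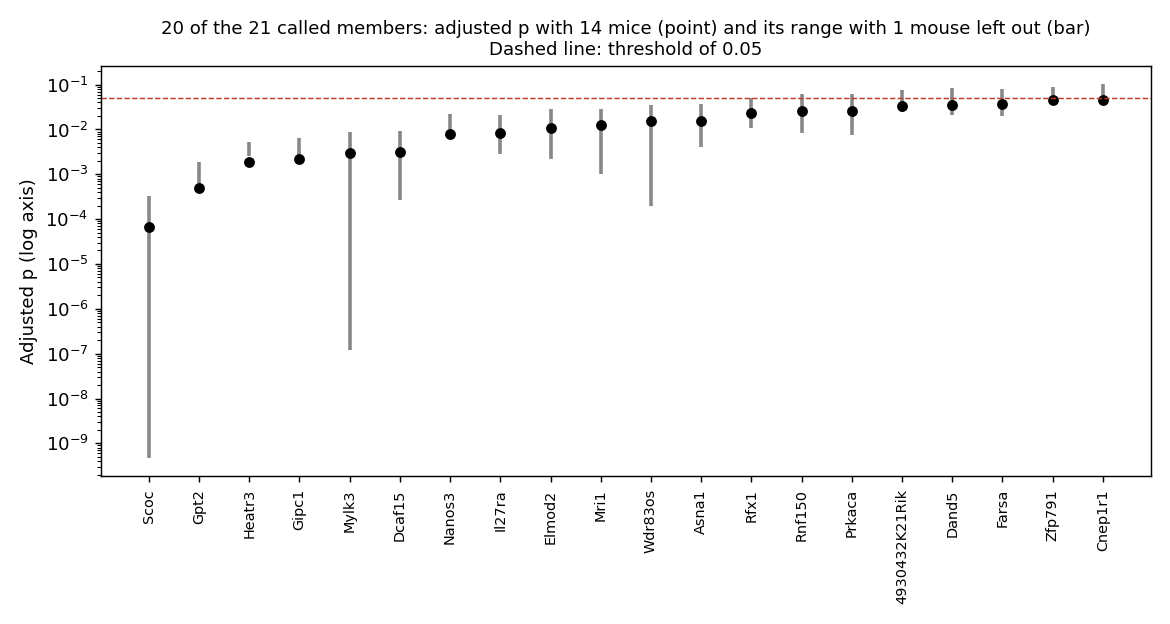
Adjusted p (edgeR, log axis) of 20 of the 21 called members with all 14 mice (point) and its range over the 14 fits that each left out 1 mouse (bar). The bars of Scoc and Mylk3 reach down to 4.76e-10 and 1.18e-07, both without LPAR2-/- mouse 2, and 7 members have bars that cross the dashed threshold of 0.05.

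At the limits of the rule, the first and last members inside were Hhip (midpoint 80.01 Mb, log2 fold change -0.0058, adjusted p = 0.991) and Sall1 (89.0 Mb, 0.09, adjusted p = 0.490). Just outside lay Anapc10 (79.7 Mb, -0.17) and Tox3 (90.3 Mb, 0.18). At the count minimum, Nanos3 and Snx20 reached 10 counts in 10 mice, Asf1b in 11 and Frem3, Il15 and Mylk3 in 12, whereas Nod2 reached it in 6 mice, with between 3 and 15 counts, and was no member.

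Genes that work with Mylk3 and Scoc elsewhere in the genome were counted on lists written with earlier results of these data known. Of 23 genes for myosin light chains, their kinases, phosphatase and calmodulin, 18 were tested, and Rock2, a kinase that inhibits myosin phosphatase, was the only one that passed (log2 fold change -0.15, SE 0.0369, adjusted p = 0.0220). This is 1 of 18, beside 6.77% of all genes called. The median log2 fold change over the 18 was -0.0053, beside 0.0029 over all genes. The related kinase Mylk, which smooth muscle cells also express, had 27.0 ± 7.70 CPM in WT mice and 33.9 ± 9.18 CPM in mice labelled LPAR2-/- (SD, n = 7 each, adjusted p = 0.351). Mylk2 had between 0 and 1 and Mylk4 between 2 and 13 counts per mouse, too few to be tested. Of 31 partners of Scoc and autophagy genes, 3 fell and none rose, beside 3.46% of all genes lower and 3.32% higher, with a median of -0.02. These were Ulk1, a kinase that starts autophagy (-0.12, adjusted p = 0.0393), Atg12, a ubiquitin-like conjugation protein (-0.17, adjusted p = 0.0457), and the golgin Golga4 (-0.12, adjusted p = 0.0418). All 3 lost their call with upper quartile scaling (adjusted p = 0.0807, 0.0600 and 0.0862) and in most fits with 1 mouse left out. Fez1, which binds Scoc, had a log2 fold change of 0.0038 (SE 0.0426, adjusted p = 0.976).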

How the data were processed

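After trimming by cutadapt 1.18, the authors mapped the reads to mm10 (STAR) and summed those on exons of each gene, reverse strand, in featureCounts 1.6.3. The deposited counts, raw and per mouse, were used here. A deposited table of normalized values was not used, because its decimal points had turned into separators between digit groups. Samples were grouped by the genotype on the labels, 7 against 7, and no batch is labelled.

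Software was edgeR 4.0.16 and DESeq2 1.42.0, with limma 3.58.1 underneath, in R 4.3.3. Genes passing filterByExpr (14897) were scaled by TMM and tested by the robust quasi-likelihood F test without covariates, with Benjamini-Hochberg adjustment over all of them and a threshold of 0.05. CPM are counts scaled to 1000000 per mouse with TMM factors, and trees used log2 CPM with a prior count of 2. Standard errors were derived from the log2 fold change and F. Depth was between 15434620 and 23258949 counts per mouse, which limits the precision of scarce members such as Nanos3, whereas libraries of a group differed by more than counting error. For lists of cell types, exact permutation tests (two-sided) ran over 3432 arrangements, with 0.000583 as the smallest p. The procedure was tested on simulated data. Every one of 42 library pairs within a group differed by more than sampling noise (chi-square of at least 3.31 per degree of freedom).

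Members, role lists and pathway lists were chosen with earlier results of these data known. Named genes were Scoc, Mylk3, Lpar2, all called members (values of 1 of them are not reported here), the most abundant per kb of each role, the least changed of the 10 most abundant, those at the rule's limits, and genes of the pathway lists, of which those called and partners of Scoc or Mylk3 are given. Alternatives were DESeq2, other scaling (DESeq2 size factors, upper quartile), other count filters, narrower membership, the mouse number as a block and each mouse left out.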

Additional observations from a re-analysis of the deposited data

Results flagged for a closer look

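Values of 4 called members held 1 mouse labelled LPAR2-/- that lay far from the other 6, by the gap to the nearest mouse relative to the range of the 7. Over the 44 groups examined (the called members and Tnpo2, in each genotype), chance alone marks about 1 group in 20. LPAR2-/- mouse 2 had 32.1 CPM of Scoc, where the next highest mouse had 19.4. It had 3.53 CPM of Mylk3, beside 0.821 in the next. It had 23.9 CPM of Wdr83os, beside 17.9 in the next. For Elmod2 the mouse apart was LPAR2-/- mouse 3, with 21 CPM beside 17.1 in the next. The cause was not tested.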

How the results depend on the processing

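Scoc, Mylk3 and Lpar2 kept their direction and stayed under an adjusted p of 0.05 in every alternative run, except that Mylk3 was not tested where 10 counts were asked of every library. Of the 81 members with 10 or more counts in all 14 mice 19 were called (beside 6.77% of all genes), and all 21 called members lie wholly between 80 and 90 Mb. The filter that asked 10 counts of every library also called 19 of 81, beside 6.99% of the genes it kept. DESeq2 called 26 members, among them all 21 of edgeR, beside 9.32% of all genes. With upper quartile scaling or without a filter on low counts, 18 of the 21 were called, beside 6.67% and 4.27% of all genes. The mouse numbers do not pair the mice, since correlations of same-numbered mice ranged from -0.334 to 0.311 and 3 of 7 were over 0.1. With the number as a replicate block, 15 members and 586 genes were called, against 21 and 1009, and Rfx1, 4930432K21Rik, Dand5, Farsa, Zfp791 and Cnep1r1 were lost. Without a filter 858 genes were called.

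With 1 mouse left out, between 14 and 23 members were called in either direction (16.1% to 26.4%, beside 3.79% to 9.26% of all genes). Between 7 and 12 members were called higher and between 7 and 12 lower, with the fewest lower without LPAR2-/- mouse 5 or WT mouse 2. The median log2 fold change of the members then ranged from -0.0417 to 0.00655, with the lowest value without LPAR2-/- mouse 3, and between 8 and 14 members did not overlap (beside 1.95% to 3.21% of all genes), with the most without LPAR2-/- mouse 2. Near 0, the sign of the log2 fold change of Hhip turned with upper quartile scaling (0.0155) and ranged from -0.17 to 0.0672 with 1 mouse left out. That of Adgrl1 ranged from -0.00584 to 0.0245, below 0 without LPAR2-/- mouse 2. The cause of these shifts was not tested.

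Nanos3, Snx20, Asf1b and Frem3 had at most 36 counts in any mouse, which limits their precision. Genotype cannot be told apart from colony, and the called members were chosen by the comparison that also describes them.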
